A study of Homo sapiens with 6 samples.

Results

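H3AcK9 peaks at the genes of the ERBB receptor family were examined in SKOV3WT, an established human ovarian carcinoma cell line. The members were fixed by name and are all 4 genes of the family, ERBB2, EGFR, ERBB3 and ERBB4, each taken as an interval in the hg19 build of the human genome with 20 kb flanks on either side. H3AcK9, histone 3 acetylated at lysine 9, is a mark of open chromatin that is removed by histone deacetylases, and the study asked how inhibitors of these enzymes (HDACis) change it. Cells were left untreated or received vorinostat or romidepsin for 24 h at 1 times the IC50, with 1 ChIP sample per condition. Each treated sample was split in 2 and gave 2 peak lists, so there were 5 lists in all. The lists of a drug are parts of 1 sample and not replicates, so differences between conditions could not be tested and stand here without p-values. Ratios of treated to untreated cells use the average over the drug's lists, and each list is also given singly. SKOV3 is 1 line, all 3 conditions share its genotype, and it is known for amplification of ERBB2. Copy number was not measured here, so more copies and more acetylation per copy cannot be told apart in any level given for ERBB2.

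The ERBB proteins are receptor tyrosine kinases of the cell surface. EGFR, ERBB3 and ERBB4 bind ligands of the EGF and neuregulin families, ERBB2 has no known ligand of its own, and ERBB3 has little kinase activity and signals as a partner in dimers. The receptors dimerise, phosphorylate each other and recruit adaptors such as GRB2 and SHC1, which lead to the RAS and PI3K pathways. In ovarian carcinoma ERBB2 and EGFR are long-studied drug targets.

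The lists held 376666 peaks in untreated cells, 912311 and 913199 with vorinostat, and 896878 and 884242 with romidepsin, while the covered length was 0.879 times the untreated one with vorinostat and 0.920 times with romidepsin. The windows of the 4 genes with their flanks held 231 of the untreated peaks, 543 and 530 of the vorinostat peaks, and 544 and 543 of the romidepsin peaks. The narrowest untreated peak measured 127 bp and the narrowest treated ones 50 or 51 bp, so a number of peaks and a number of covered bases can move in opposite directions. The lists carry no read counts, and the depth behind a peak is unknown. As a check of the line, genes of epithelial and ovarian carcinoma cells were covered to 53.8% (KRT18), 63.8% (EPCAM) and 80.5% (PAX8) of their intervals in untreated cells. PTPRC, a leukocyte gene, was covered to 14.5% and ALB, a hepatocyte gene, to 2.99%. Untreated peaks covered 344 Mb in all, so the cover of PTPRC is not low against the genome.

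The sequences upstream of the annotated start sites show what kind of promoter lies at the ends compared here. They were taken from RefSeq by gene symbol (GRCh38.p14), which held 3 of the 4 members. Each is 250 bases long and ends just before the start site, with CpG dinucleotides in capitals. They are for ERBB2 chr17:39687844-39688093 on the plus strand, for the main start of EGFR chr7:55018767-55019016 and for an internal start 90.8 kb into EGFR chr7:55109589-55109838, both on the plus strand, and for ERBB4 chr2:212538803-212539052 on the minus strand. These positions are in another build than the peaks, and none was converted.
ERBB2: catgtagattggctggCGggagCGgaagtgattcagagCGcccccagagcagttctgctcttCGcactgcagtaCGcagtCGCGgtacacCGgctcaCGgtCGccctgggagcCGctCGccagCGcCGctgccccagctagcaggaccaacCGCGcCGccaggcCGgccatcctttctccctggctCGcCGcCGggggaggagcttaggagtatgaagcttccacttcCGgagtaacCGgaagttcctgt
EGFR, main start: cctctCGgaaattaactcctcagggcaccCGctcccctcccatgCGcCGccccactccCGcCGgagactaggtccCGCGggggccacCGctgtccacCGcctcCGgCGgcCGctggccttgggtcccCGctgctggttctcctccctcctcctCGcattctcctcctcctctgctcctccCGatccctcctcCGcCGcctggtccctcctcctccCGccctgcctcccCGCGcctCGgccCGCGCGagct
EGFR, internal start: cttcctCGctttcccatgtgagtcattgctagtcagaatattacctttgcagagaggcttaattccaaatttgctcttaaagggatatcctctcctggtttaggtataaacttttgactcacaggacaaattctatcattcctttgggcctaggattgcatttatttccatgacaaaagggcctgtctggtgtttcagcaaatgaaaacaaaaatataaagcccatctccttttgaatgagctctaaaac
ERBB4: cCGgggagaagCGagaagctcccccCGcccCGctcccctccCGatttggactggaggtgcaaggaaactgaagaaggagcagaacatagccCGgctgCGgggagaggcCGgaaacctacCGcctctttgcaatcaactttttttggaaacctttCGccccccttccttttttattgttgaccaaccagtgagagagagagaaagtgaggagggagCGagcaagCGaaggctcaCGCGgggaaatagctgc

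The main EGFR promoter was the richest of these in CpG, with 25 dinucleotides and 73.6% G and C, followed by ERBB2 with 23 and 65.6% and by ERBB4 with 14 and 57.2%. The internal EGFR start had 1 CpG and 38.8% G and C. Over all 35116 promoters of the same length the medians were 11 CpG and 58.0%. The letters GGGCGG, searched on both strands, occurred 2 times in the main EGFR promoter, 1 time in that of ERBB4 and 0 times in the other 2, against 42.6% of all promoters with at least 1 match. TATAAA occurred 2 times upstream of the internal EGFR start and in none of the other 3, against 10.7% of all promoters.

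In untreated cells the genes differed widely in how much of their length carried H3AcK9. ERBB2 (chr17:37844000-37885000, ends rounded to the kb) was covered to 85.6% of its 41 kb. EGFR (chr7:55086000-55279000) was covered to 53.5% of its 193 kb, and ERBB3 (chr12:56473000-56498000) to 49.8% of its 25 kb. ERBB4 (chr2:212240000-213404000), the only member on the minus strand, was covered to 7.71% of its 1164 kb. EGFR and ERBB3 lay closer to each other than either lay to the other members, and with 1 untreated sample this difference cannot be set against a spread.

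With vorinostat the covered share was lower at all 4 genes. It was 71.0% and 64.0% at ERBB2, 42.4% and 40.4% at EGFR, 42.2% and 41.4% at ERBB3, and 5.27% and 5.03% at ERBB4. With romidepsin it was 90.0% and 88.9% at ERBB2, 53.6% and 51.9% at EGFR, 47.5% and 48.9% at ERBB3, and 4.21% and 4.24% at ERBB4. The romidepsin lists thus lay above the vorinostat lists at ERBB2, EGFR and ERBB3 and below them at ERBB4. The drugs did not overlap at any of the 4, which is common. Across the genome, both romidepsin lists lay above both vorinostat lists in 41.1% of the 10 kb tiles compared and below them in 25.1%. The lists of 1 drug were farthest apart for ERBB2 with vorinostat.

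Counted with the flanks, covered bases with vorinostat were 0.834 times the untreated number at ERBB2, 0.777 at EGFR, 0.698 at ERBB3 and 0.677 at ERBB4. With romidepsin they were 1.03, 1.02, 0.839 and 0.559 times. Of these 8 ratios that of ERBB4 with romidepsin was past 1.5-fold, the size used here to call a difference, and the other 7 were not. This count rested on the choice of peaks. Keeping only peaks scored 1 or more put 7 of the 8 past 1.5-fold, with 0.224 (vorinostat) and 0.174 (romidepsin) at ERBB2, 0.393 and 0.899 at EGFR, 0.546 and 0.162 at ERBB3, and 0.457 and 0.263 at ERBB4, against 0.578 to 0.653 over the whole genome in the single lists. Joining peaks 1000 bp or less apart put none past it, with ERBB4 at 0.806 with romidepsin and the vorinostat ratios between 0.941 and 1.00. For the share of larger windows past that size, 100 kb tiles across the genome serve as background, and 24.9% of them were lower by 1.5-fold or more with romidepsin and 20.1% with vorinostat. The median tile stood at 0.895 with romidepsin and 0.903 with vorinostat. The share past that size depends on tile length, since 38% of 10 kb tiles were lower with romidepsin. The ERBB4 window of 1204 kb is far longer than either tile, so 24.9% is not a background for its length. The flanks hold other genes, namely PNMT, PGAP3, MIEN1 and GRB7 at ERBB2 and PA2G4, RPL41 and ZC3H10 at ERBB3.

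The number of peaks was higher in every treated list at each gene, also where covered bases were not lower. Over the whole series it was 2.42 times the untreated number with vorinostat and 2.36 times with romidepsin. The ERBB2 window held 12 untreated peaks, 46 and 50 with vorinostat and 28 and 30 with romidepsin. At EGFR there were 56 untreated peaks, 144 and 145 with vorinostat and 207 and 192 with romidepsin. ERBB3 had 21 untreated peaks, 52 in each vorinostat list and 51 and 56 with romidepsin, and ERBB4 had 142, then 301 and 283, then 258 and 265. As listed, ERBB2 had more peaks with vorinostat and EGFR more with romidepsin. These numbers depended on how gaps were treated: after joining peaks that lay 1000 bp or less apart, the ratio was 1.25 with vorinostat and 0.250 with romidepsin at ERBB2, 1.26 and 0.758 at EGFR, and 0.964 and 0.714 at ERBB3, so the order of the drugs at EGFR turned.

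The ERBB2 window with its flanks was nearly continuous in untreated cells. The median width of the 12 peaks that touch it was 8152 bp, and 7 of them were at least 5 kb wide. The gene interval alone held 7 untreated peaks, and the others lay outside the gene. The median was 644.5 and 612 bp with vorinostat and 2548.5 and 1467.5 bp with romidepsin. Vorinostat left 80.6% and 76.4% of the untreated covered bases under a peak, and romidepsin left 92.4% and 91.0%. The share of treated peaks that touched no untreated peak was 10.9% and 10.0% with vorinostat and 3.57% and 3.33% with romidepsin, against 59.7% to 63.5% of all treated peaks. With 86.1% of the window covered in untreated cells, few peaks could fail to touch one. Of the window's bases without untreated cover, the romidepsin lists covered 72.8% and 69.5% and the vorinostat lists 30.1% and 30.5%.

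Within ERBB2 the drugs differed most in the middle of the gene. The 5' end lay in an untreated peak of 11099 bp (chr17:37838636-37849734), and within 2 kb on each side of this end the untreated cover of 100% stood beside 86.4% and 85.8% with vorinostat and 88.4% and 85.2% with romidepsin. The start of the main protein-coding transcript lies 12.0 kb further in and fell in a peak of 8905 bp (chr17:37854283-37863187), of which 96.1% and 96.2% stayed covered with vorinostat and 92.8% and 91.4% with romidepsin. The next peak, of 12547 bp (chr17:37864853-37877399), was broken into 10 and 13 pieces that covered 62.3% and 56.2% of it with vorinostat. With romidepsin 5 and 4 pieces covered 93.2% and 94.9% of the same peak. The drugs thus differed far more in this peak than at either start. The widest untreated peak of the window, 13067 bp at chr17:37903314-37916380, began 59.3 kb from the 5' end, beyond the gene, and stayed covered to 91.6% and 89.0% with vorinostat and 89.2% and 88.5% with romidepsin.

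When the interval was divided into 4 equal stretches of 10.25 kb from the 5' end, the second, which holds the main start, had 1.02 times the untreated covered bases with the first vorinostat list, and the next had 0.618 times. In the last stretch the untreated cover was 68.9%, the vorinostat lists had 63.2% and 55.9%, and the romidepsin lists had 89.3% and 89.2%. In the other 3 stretches the romidepsin lists were between 0.912 and 1.03 times the untreated value.

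**Figure D1:**
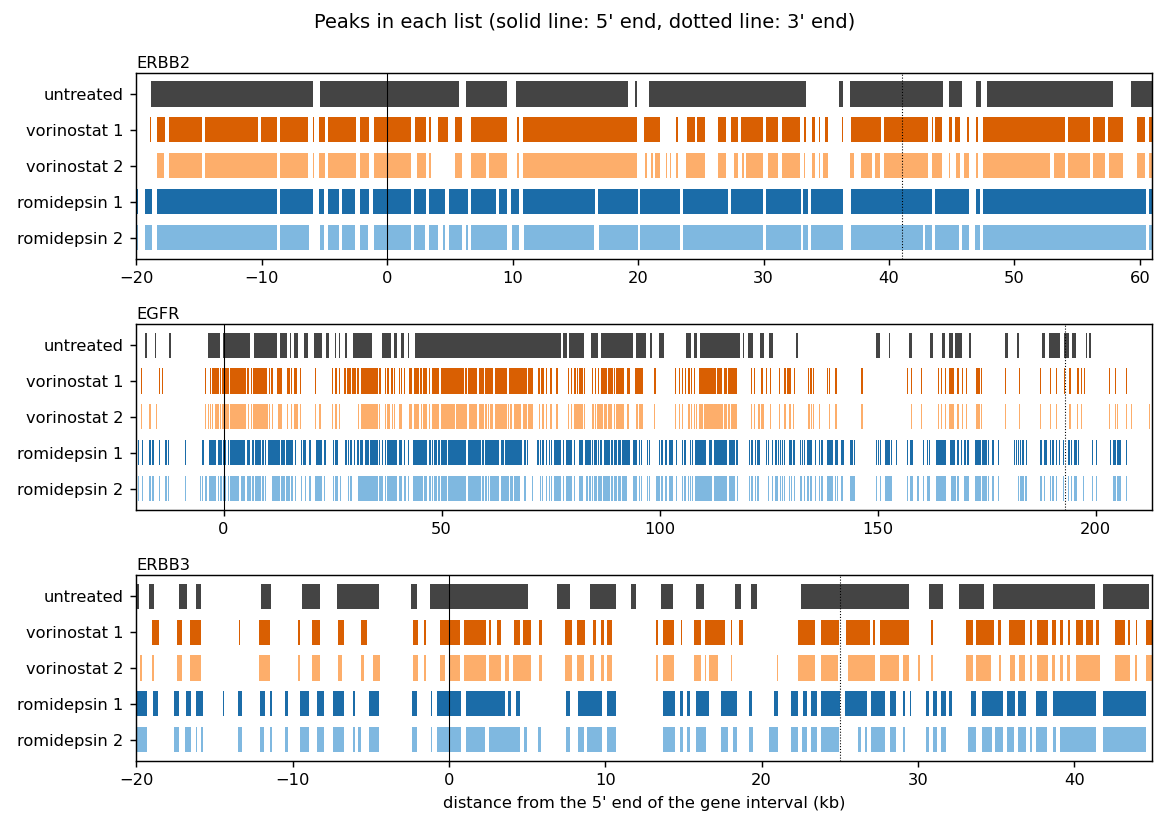
Positions of the peaks of each list at ERBB2, EGFR and ERBB3 with 20 kb flanks, along the distance from the 5' end of the gene (kb); each bar is 1 peak drawn to scale, and the solid and dotted lines mark the 5' and 3' ends. Wide untreated peaks stand above rows of narrower pieces, and the body of ERBB2 from 20.9 to 33.4 kb is thinned in both vorinostat lists.

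In tiles of 10 kb, 4 of the 4 tiles of ERBB2 were covered to 50% or more in untreated cells and 3 to 80% or more, against 6.38% and 1.13% of all 271763 tiles. Of the tiles of ERBB2, 0 were past 1.5-fold in either direction with either drug. Their untreated cover was 74.0% or more, so none could be higher by 1.5-fold, and only the count of lower tiles can be compared. Among the 120288 tiles with at least 500 untreated covered bases, 12% were higher and 43.4% lower by 1.5-fold with vorinostat, and 16.2% were higher and 38% lower with romidepsin. Both romidepsin lists lay above both vorinostat lists in 4 of the 4 ERBB2 tiles, as in 41.1% of all tiles.

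ERBB2 was compared with its neighbours in 700 kb of chromosome 17 (chr17:37500000-38200000). Outside the gene, peaks of untreated cells covered 51.5% of this region, those of vorinostat 43.2% and 41.5%, and those of romidepsin 56.6% and 52.7%, each below the cover of ERBB2 in the same list. The covered share of ERBB2 was 1.66 times that of the rest of the region in untreated cells, 1.59 times with vorinostat and 1.64 times with romidepsin, so its ratio to the region was about the same in each condition. The ratio of treated to untreated cover was 0.789 in ERBB2 and 0.822 in the rest of the region with vorinostat, and 1.05 and 1.06 with romidepsin. ERBB2 and the rest of its region thus had ratios close to each other with both drugs. With 85.6% of ERBB2 covered in untreated cells, its ratio had little room above 1.

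ERBB2 was not the most covered gene there. Of its 20 neighbours, 5 had a higher untreated cover, and the median neighbour had 52.1%. TCAP, which encodes a sarcomere protein, and MIEN1, next to ERBB2 on its 3' side, were covered to 100%. Of the other genes that touch the window, PGAP3, involved in remodelling of GPI anchors, was covered to 96.8%, GRB7, an adaptor that binds ERBB receptors, to 85.4%, and PNMT, which makes adrenaline, to 61.0%. The lowest was LRRC3C with 22.9%, whose length differs between the position used and RefSeq.

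With vorinostat 3 neighbours were above and 16 below the untreated value, with a median of 0.863, and MIEN1 was at 1.00. The 4 that were lower by 1.5-fold were ZPBP2 (0.145), PNMT (0.569), IKZF3 (0.627) and MED1 (0.651), and no neighbour was higher by as much. The neighbours spanned 2 to 99 kb, and the background depends on tile size. With vorinostat 20.1% of 100 kb tiles and 43.4% of 10 kb tiles were lower by that size, so the 4 of 20 are not above either. With romidepsin 11 were above and 8 below, with a median of 1.10. LRRC3C (2.75) and NEUROD2 (1.70) were higher by 1.5-fold and ZPBP2 (0.390) was lower. The backgrounds are 12.6% and 24.9% of 100 kb tiles, and 16.2% and 38% of 10 kb tiles. ZPBP2, IKZF3, MED1 and NEUROD2 were named after their values were seen. GRB7, in the ERBB2 window, was covered to 81.4% and 78.5% with vorinostat and to 100% in both romidepsin lists.

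The domain around ERBB2 was wider than the gene. A run of consecutive 10 kb tiles, each covered to 50% or more, spanned 160 kb in untreated cells, from 84 kb before to 76 kb after the start of the ERBB2 interval. It spanned 180 kb in both vorinostat lists, from 94 kb before to 86 kb after the start, and 230 kb in both romidepsin lists, from 144 kb before to 86 kb after. The run was therefore not shorter with vorinostat, although the cover inside ERBB2 was lower.

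EGFR carried its H3AcK9 mainly in intron 1. By distances within the gene in the reference annotation, intron 1 runs from 0.349 to 123.3 kb, and it was covered to 72.9% in untreated cells against 18.96% from exon 2 to the end. The widest peak of all members lay in this intron, 33504 bp long at chr7:55129825-55163328, from 43.8 to 77.3 kb from the 5' end. By width it ranked 10 among the 376666 untreated peaks. The vorinostat lists broke it into 20 and 26 pieces that covered 78.6% and 72.7% of it, and the romidepsin lists into 22 and 25 pieces that covered 76.4% and 71.5%. At this peak the drugs gave nearly the same picture.

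The drugs differed behind intron 1. From exon 2 to the end of EGFR the untreated cells had 13224 covered bases, the vorinostat lists 11312 and 10769, and the romidepsin lists 25369 and 24793. Both romidepsin lists were thus above the untreated value and both vorinostat lists below it, with ratios of the mean of 1.90 and 0.835. In intron 1 the ratios were 0.852 with romidepsin and 0.765 with vorinostat. Over the gene alone the romidepsin ratio was 0.987, with the lower cover in intron 1 beside the higher cover behind it, and the flanks before and behind the gene had ratios of 1.47 and 1.44. Among 100 kb tiles, 12.6% were higher by 1.5-fold or more with romidepsin.

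At the 5' end of EGFR an untreated peak of 6339 bp (chr7:55085846-55092184) covered the main start, whose upstream sequence is the CpG-rich one above. Within 2 kb on each side of this end, cover was 81.0% in untreated cells, 78.9% and 76.7% with vorinostat, and 71.2% and 62.8% with romidepsin. The internal start, with the A- and T-rich sequence, lies at a distance that falls in an untreated peak of 7342 bp (chr7:55172503-55179844). Of that peak 72.6% and 65.2% remained covered with vorinostat and 72.9% and 66.0% with romidepsin. Peak cover was thus present near the main start and in the peak at the internal start in every list. The main start is known to 1 kb. Both romidepsin lists had a gap within that kb, ending 0.915 kb from the 5' end. Cover at the main start itself is therefore not shown for romidepsin.

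Over the tiles of EGFR, 18 of 19 had enough untreated cover to be compared. With vorinostat 8 were lower and 0 higher by 1.5-fold, and with romidepsin 3 were lower and 6 higher. The share lower with vorinostat, 44.4%, was near the background of 43.4%. The share higher with romidepsin was 33.3% against a background of 16.2%, and the romidepsin lists lay above the vorinostat lists in 12 tiles and below them in 2, with backgrounds of 41.1% and 25.1%. Of the treated peaks of EGFR, 40.3% and 36.6% touched no untreated peak with vorinostat and 44.9% and 44.3% with romidepsin. The untreated peaks covered 47.1% of the EGFR window, which bears on how many peaks can touch one.

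ERBB3 carried H3AcK9 at both of its ends. A peak of 6245 bp (chr12:56471805-56478049) held the 5' end, and the widest peak of the window, 6946 bp at chr12:56495497-56502442, spanned the 3' end. This widest peak ran from 22.5 to 29.4 kb from the 5' end of the 25 kb gene. Most of it thus lay in the flank that holds PA2G4 and RPL41. Around the 5' end the untreated cover of 79.9% stood beside 60.9% and 55.2% with vorinostat and 64.2% and 64.6% with romidepsin. The peak at the 3' end was covered to 80.5% and 77.5% with vorinostat but to 67.5% and 51.9% with romidepsin, the reverse of the order at the 5' end peak, which was covered to 61.3% and 71.0% with vorinostat and to 73.8% and 81.3% with romidepsin.

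The third of 4 equal stretches of ERBB3, each 6.25 kb long, went the other way. It had 1670 covered bases in untreated cells, 3002 and 2050 with vorinostat, and 3000 and 2502 with romidepsin, so every treated list was above the untreated one. The flank behind ERBB3, which holds PA2G4 and RPL41, was covered to 82.1% in untreated cells, more than ERBB3 itself, and to 50.7% and 52.0% with vorinostat and 63.6% and 56.3% with romidepsin. Much of the lower cover of the ERBB3 window with its flanks therefore lay outside the gene, and over the gene alone the ratios were 0.840 with vorinostat and 0.968 with romidepsin. Of the 3 tiles inside ERBB3, 0 were past 1.5-fold with either drug. With the flanks, 3 of 7 tiles were lower with vorinostat (42.9%) and 1 was higher with romidepsin (14.3%). The backgrounds are 43.4% lower and 12% higher with vorinostat, and 38% lower and 16.2% higher with romidepsin.

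ERBB4 was different in kind. It had 142 untreated peaks over 1204 kb with a median width of 417.5 bp, and 5 of them were 2 kb or wider. Of its untreated covered bases, 54.8% lay in the 291 kb nearest the 5' end. Its widest peak, 6031 bp at chr2:213397878-213403908, began 0.092 kb inside the 5' end, where positions are known to 1 kb. Of this peak 67.3% and 65.4% were covered with vorinostat and 49.5% and 40.7% with romidepsin.

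Close to the 5' end, which is known to 1 kb, the drugs went in opposite directions. Within 2 kb on each side, the untreated cover was 57.4%, the vorinostat lists had 70.2% and 70.0%, and the romidepsin lists had 40.6% and 29.0%. In the 10 kb tile that holds this end, no vorinostat list lay above the untreated value. That tile was covered to 46.9% in untreated cells, 46.7% and 40.8% with vorinostat, and 24.5% and 18.9% with romidepsin. Within 2 kb of the 5' end, ERBB4 was the only 1 of the 4 genes at which a drug's lists lay above the untreated value. At ERBB2 the untreated cover of 100% left no room for a higher value. EGFR with 81.0% and ERBB3 with 79.9% left less room than ERBB4. The sequence printed for the ERBB4 start was the poorest in CpG among the 3 printed for the 5' ends of genes. Its 14 CpG were above the median of 11 over all promoters. The printed sequence of ERBB2 belongs to its 5' end and not to its main start. A relation between CpG content and peak cover was not tested.

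Along the body of ERBB4 the lists shared few bases. With vorinostat 20.0% and 20.3% of the untreated covered bases were still covered, and with romidepsin 17.4% and 17.5%. Of the treated peaks, 74.1% and 71.7% with vorinostat and 72.5% and 69.1% with romidepsin touched no untreated peak, against 59.7% to 63.5% of all treated peaks, in a window of which untreated peaks covered 7.71%. The lists of 1 drug had 62.3% (vorinostat) and 61.3% (romidepsin) of their combined bases in common, while those of different drugs had 10.9% and 10.8%. At ERBB2 the same shares were 90.3% and 96.8% within a drug and 78.6% and 75.4% between drugs. Of the window of ERBB4, 0.381% was covered in all 5 lists, against 62.6% of that of ERBB2, 18.6% of that of EGFR and 18.9% of that of ERBB3.

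Of the 116 tiles of ERBB4, 45 had enough untreated cover to be compared and 39 had no untreated peak. With vorinostat 31 of the 45 were lower by 1.5-fold (68.9%, background 43.4%) and 1 was higher. With romidepsin 35 were lower (77.8%, background 38%) and 1 was higher. These tiles were chosen for untreated cover, so that part of the treated cover which lay in tiles without it does not enter. Over the whole interval, where all bases enter, the ratios were 0.667 with vorinostat and 0.548 with romidepsin. The lower cover was seen along the gene: in the 4 equal stretches from the 5' end the first romidepsin list had 0.490, 0.510, 0.735 and 0.629 times the untreated covered bases.

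**Figure D2:**
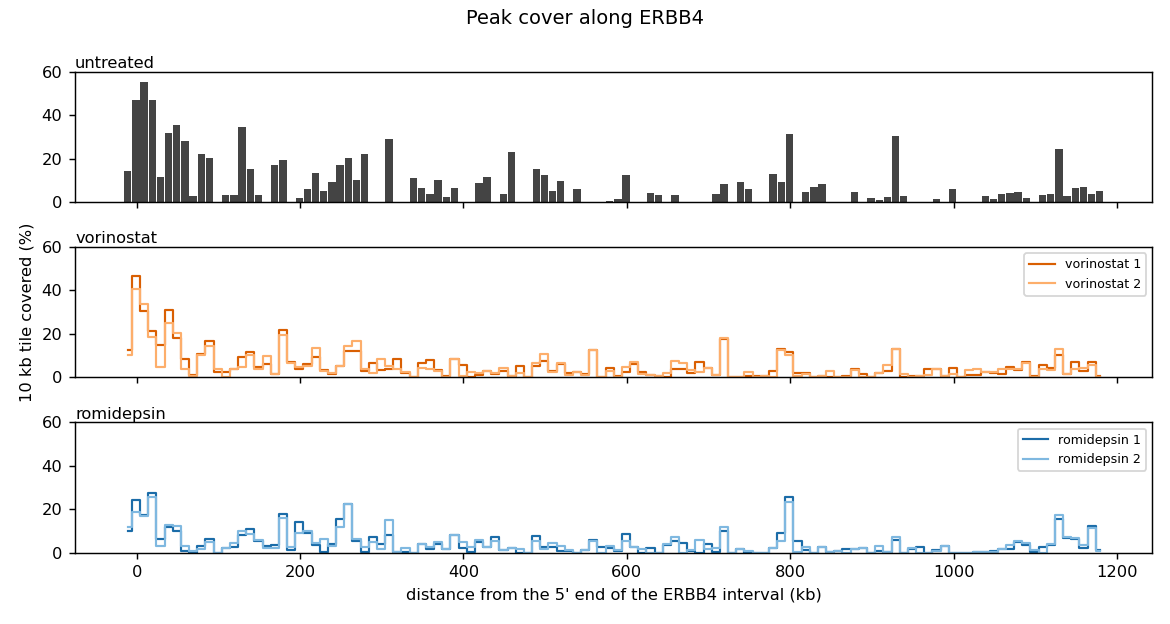
Share of each 10 kb tile covered by peaks (%) along ERBB4 by distance from its 5' end (kb), with untreated cells as bars above and the 2 lists of each drug as lines below. Cover is highest near the 5' end in each condition, and both romidepsin lists are at or below 30% in every tile.

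Of the other genes of the pathway, 22 were examined with the same flanks: 10 ligands, 6 adaptors or signal proteins and 6 regulators. With vorinostat 5 were above and 17 below the untreated covered bases, with a median of 0.846, and with romidepsin 8 were above and 14 below, with a median of 0.908. Past 1.5-fold, 2 were higher and 5 lower with vorinostat, and 2 were higher and 2 lower with romidepsin, against backgrounds of 17.7% and 20.1% of 100 kb tiles with vorinostat and 12.6% and 24.9% with romidepsin. As shares of the list these counts were 9.09% and 22.7% with vorinostat and 9.09% and 9.09% with romidepsin, at or below the background in all but the 5 lower with vorinostat, which were near it.

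By role, all 6 adaptors and signal proteins were below the untreated value with both drugs, with medians of 0.664 (vorinostat) and 0.730 (romidepsin). Of 100 kb tiles 40.6% were above 1 with vorinostat and 38.8% with romidepsin, so a value below 1 was the more common one anywhere. The lowest with vorinostat were SOS1, an exchange factor of RAS, at 0.565, and PIK3CA, the catalytic subunit of PI3K, at 0.596. The lowest with romidepsin were PIK3CA at 0.632 and GAB1, a docking protein, at 0.638. PIK3CA had 26183 untreated covered bases, 16649 and 14539 with vorinostat, and 17908 and 15185 with romidepsin.

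The ligands had medians of 0.983 and 1.00. AREG, which encodes the EGFR ligand amphiregulin, had the highest ratio with both drugs, 2.75 with vorinostat and 2.12 with romidepsin. Its window had few peaks, with 1198 covered bases in untreated cells, 3409 and 3189 with vorinostat, and 2464 and 2612 with romidepsin. NRG3, a neuregulin, followed with 2.65 and 1.56, but its lists were far apart. It had 4220 untreated covered bases, 7604 and 14782 with vorinostat, and 4208 and 8919 with romidepsin, so the first romidepsin list stood at the untreated level. Over the gene intervals without flanks, 1 pathway gene was higher and 6 were lower by 1.5-fold with vorinostat, and 0 were higher and 0 lower with romidepsin, so the romidepsin calls of AREG, NRG3, PIK3CA and GAB1 do not hold there. The regulators had medians of 0.901 and 1.05.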

How the data were processed

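H3AcK9 ChIP-seq was read from 5 peak lists of 3 ChIP samples of SKOV3WT. The 3 input samples were not used here. The authors filtered reads with SOAPnuke, allowed up to 2 mismatches in alignment (SOAPaligner, SOAP2 or BWA) and ran MACS 1.4.2 on each list with a p-value cutoff of 1e-05. Drosophila chromatin was added as spike-in, and its use is not given in the sources used here. The deposited score of each peak has no stated scale and served only as a filter (at least 1). The labels give hg38, but 26908 peaks end beyond hg38 chromosomes and 0 beyond those of hg19, so positions were read as hg19. Depth per library is not part of the lists, and the precision it gives is unknown.

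Peaks overlapping a window by at least 1 bp were counted, and covered bases are those of the union of a list's peaks. With 1 sample per condition no test was made, and a difference was called past 1.5-fold. Gene intervals of the members were rounded to the kb. Positions of the 20 neighbours, 23 pathway genes and 5 marker genes were entered in kb from general knowledge of hg19, since the reference was hg38 (RefSeq, GENCODE release 44), from which only names, sequences and distances within genes were taken. Spacing of the neighbours was checked and differed from hg38 by 0.608 kb or less at the closer end. Lengths of 2 neighbours (CDK12, LRRC3C) differed by more than 2 kb and 10%, and these were kept. NRG4 was left out for that reason. FBXL20 and MED24 were taken up to the region's ends. Background tiles lay on the 20 chromosomes with peaks in all lists.

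All 4 members and the neighbours that touch the ERBB2 window or had the highest or lowest cover were named. Of the pathway, the 2 highest and 2 lowest ratios per drug, and genes past 1.5-fold with both drugs, were named, and of the untreated peaks the widest and those at 5' ends. The division of the genes into 4 stretches, and of EGFR at exon 2, was made after their values were seen. Members and lists were chosen with earlier results of these data known. Python 3.11.15, NumPy 2.4.6, pandas 2.3.3 and Matplotlib 3.10.9 were used. Counts and bases were checked against bedtools 2.31.1, equal in 20 of 20 cases, and the functions behind them were tested on simulated data (42 of 42 quantities recovered). Alternatives were each list alone, filters on score and width, merging across gaps of up to 300 or 1000 bp, other flanks, counting by midpoint, and other tiles.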

Additional observations from a re-analysis of the deposited data

How the results depend on the processing

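With no replicate spread, a value was taken as unchanged when it stayed within 1.5 times its reported size, which held for 131 of 164 comparisons of a result with an alternative. Each list alone, flanks of 5 kb and counting by midpoint moved no value past that, and over the gene intervals alone the 3 that moved were counts of pathway genes. Peak numbers relative to untreated cells changed most. After merging across gaps of up to 300 bp they were 2.42 (vorinostat) and 1.04 (romidepsin) at ERBB2, 2.25 (romidepsin) at EGFR and 1.62 (romidepsin) at ERBB3. After merging across gaps of up to 1000 bp they were 1.25 and 0.250 at ERBB2, 1.26 and 0.758 at EGFR, and 0.964 and 0.714 at ERBB3, for vorinostat and romidepsin in turn. With peaks of at least 200 bp they were 1.00 and 0.843 at ERBB4, in the same order. By construction merging joins pieces of 1 peak, and the width filter drops narrow peaks, which were more frequent in the treated lists.

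With a score of at least 1 the peak numbers were 2.57 and 0.786 at ERBB2, 1.13 and 2.35 at EGFR, and with romidepsin 0.875 at ERBB3 and 0.901 at ERBB4. Covered bases were then 0.224 and 0.174 at ERBB2, 0.393 (vorinostat) at EGFR, and with romidepsin 0.162 at ERBB3 and 0.263 at ERBB4. The cause was not tested, and the scale of the score is unknown. The romidepsin ratio of covered bases at EGFR ranged from 0.899 to 1.45 and kept its side of 1 in 3 of 8 alternatives, so it has no direction. That of ERBB4 with romidepsin stayed below 1 in 8 of 8, from 0.263 to 0.806. The 100 kb tiles were added after seeing the data.

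No paired analysis was possible because each condition is 1 sample. Differences between conditions have no error and depth is unknown, so that small ratios near 1 cannot be read. Copy number was not measured, which bears on levels.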
